A study of Mus musculus with 16 samples.

Results

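Livers that carried both the KEAP1 cysteine substitutions and the hepatocyte deletion of Trsp (compound mutant, Keap1C226SC613Shomo::Trspfl/fl::AlbCre, 4 mice) were compared with control livers (Trspfl/fl, 4 mice), which are 8 of the 16 libraries of the series. Every named gene of the table entered the comparison, 18209 in all, of which 15781 were tested. Both genotypes are homozygous for the floxed Trsp allele, so the control differs from the compound mutant by the Cre transgene and by the KEAP1 substitutions together. The other 8 libraries are 4 of Trspfl/fl::AlbCre, which lacks Trsp in hepatocytes and has normal KEAP1, and 4 of Keap1C226SC613Shomo::Trspfl/fl, which has the substitutions and keeps Trsp. The mice were 20 days old and are labelled male, and total RNA of whole liver was sequenced. Cre is driven by the Albumin promoter, so non-parenchymal cells of the liver keep Trsp, while the KEAP1 substitutions C226S and C613S are carried in the germ line by all cells. In whole liver, fewer cells of a type and less RNA per cell cannot be told apart.

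Trsp encodes the tRNA that inserts selenocysteine, and without it the selenoproteins, among them glutathione peroxidases and thioredoxin reductases, cannot be completed. Transcripts of some selenoproteins are then degraded by nonsense-mediated decay. KEAP1 holds the transcription factor NRF2 at a low level by directing its ubiquitination, and reactive cysteines of KEAP1 release NRF2 when they are oxidised or modified. NRF2 binds antioxidant response elements with small MAF proteins and drives genes of glutathione conjugation, quinone reduction and NADPH supply. The compound mutant therefore asks which expression changes are left when hepatocytes lack selenoproteins and KEAP1 lacks the cysteine pair that senses hydrogen peroxide.

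The files give log2(normalized count + 4), which understates changes of weakly expressed genes, and all levels and log2 fold changes below are on that scale. Between 12455998 and 16350163 reads were recovered per control library and between 13561189 and 16691951 per compound mutant library. The table holds no row for Trsp and does not show its deletion directly, and Gpx1 and Selenow transcripts, described below, are the nearest readout. The library of compound mutant replicate 1 had 28799 Xist reads, against 22 to 50 in each of the other 15 libraries, and next to none of the Y-linked genes, which goes against its male label. Results are therefore also given without that library. Of 15 hepatocyte markers, 0 passed the test between the genotypes, and Alb took 4.86% to 7.67% of the reads in compound mutant libraries and 7.84% to 9.31% in control libraries. Marker genes of 9 further cell types were also examined, and 0 of them were called. Over all genes, 0.057% were called higher and 0.076% lower, so 0 calls in such short lists do not show that cell content was the same.

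In compound mutant livers, 9 genes were higher and 12 were lower than in control livers where a call needed a limma adjusted p under 0.01 and a log2 difference beyond 1 in size, which are 0.057% and 0.076% of the genes tested. At an adjusted p under 0.05 with the same limit on size, 21 were higher (0.133%) and 46 lower (0.291%). The lower genes were selenoprotein transcripts (Gpx1 and Selenow), enzymes of drug and lipophile metabolism (Ces1f, Cyp2c54, Cyp2c50, Gstm3, Ugt2a3 and Sult1b1), Bco2, Plscr2, Snapc5 and C630043F03Rik, the last 2 named after their values were seen. The higher genes were Gpat3, Krt20, Nkiras1 and 6 genes of small or copied RNAs (Gm15459, Rpl15-ps6, Rpl15-ps2, Gm3375, Gm5898 and Rprl3). In all 21 genes the 4 compound mutant and the 4 control libraries did not overlap, as in 487 higher (3.09%) and 496 lower (3.14%) of all genes tested. The median log2 fold change over all genes was -0.01. Replicate 4 of the compound mutant lay closest to the controls in many genes, and without it 15 genes were higher and 55 lower. Without replicate 1, the library with Xist reads, 7 were higher and 7 lower, without replicate 3, 6 were higher and 5 lower, and without control replicates 1 or 2, 6 and 7 were higher and 6 and 5 lower.

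**Figure D1:**
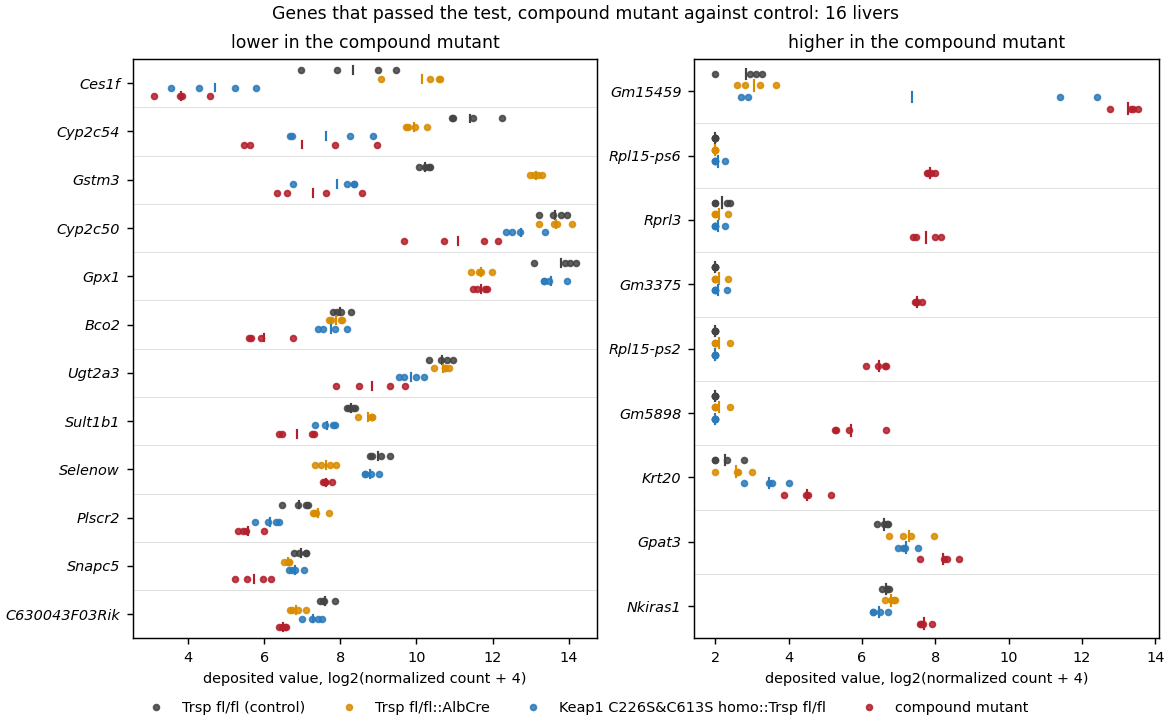
Deposited value, log2(normalized count + 4), in each of the 16 livers for the 12 genes called lower (left) and the 9 called higher (right) in the compound mutant against control; points are livers, coloured by genotype, and ticks are means. The compound mutant points of every gene lie apart from the control points, and in Bco2 the points of the single mutants, at 7.4 to 8.16, overlap with those of the controls, at 7.81 to 8.28.

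Of the 6 copied or small RNAs, 5 are processed pseudogenes, that is, copies of a messenger RNA of another gene that returned to the genome, and the counting assigns reads between a copy and its parent by few differing bases. Stretches of each copy and of its parent transcript, from the GENCODE M21 transcripts of build GRCm38, are shown because these bases decide which gene a read is counted for. Capitals mark the bases at which copy and parent differ, and the stretches are 70 bases long.
Rpl15, transcript bases 269 to 338, chromosome 14: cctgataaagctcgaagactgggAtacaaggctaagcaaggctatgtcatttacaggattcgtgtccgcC
Rpl15-ps6, transcript bases 133 to 202, chromosome 15: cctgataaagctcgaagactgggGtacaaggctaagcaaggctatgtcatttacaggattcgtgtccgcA
Rpl15, transcript bases 421 to 490, chromosome 14: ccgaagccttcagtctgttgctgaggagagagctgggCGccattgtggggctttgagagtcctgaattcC
Rpl15-ps2, transcript bases 283 to 352, chromosome 9: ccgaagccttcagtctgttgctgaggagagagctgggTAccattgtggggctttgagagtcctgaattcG
Psmb5, transcript bases 294 to 363, chromosome 14: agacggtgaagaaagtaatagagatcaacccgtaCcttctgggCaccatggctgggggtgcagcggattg
Gm3375, transcript bases 264 to 333, chromosome 7: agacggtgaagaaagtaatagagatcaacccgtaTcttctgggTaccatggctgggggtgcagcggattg
Thrap3, transcript bases 2824 to 2893, chromosome 4: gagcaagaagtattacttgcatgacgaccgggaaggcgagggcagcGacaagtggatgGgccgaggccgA
Gm5898, transcript bases 1834 to 1903, chromosome 7: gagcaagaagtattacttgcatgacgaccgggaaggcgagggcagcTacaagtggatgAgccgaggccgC
Hspa8, transcript bases 415 to 484, chromosome 9: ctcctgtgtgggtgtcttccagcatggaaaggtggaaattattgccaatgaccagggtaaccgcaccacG
Gm15459, transcript bases 45 to 114, chromosome 5: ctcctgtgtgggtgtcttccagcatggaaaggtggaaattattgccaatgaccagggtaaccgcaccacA

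Over their aligned length, Rpl15-ps6 differed from Rpl15 at 2 of 612 bases and Rpl15-ps2 at 8 of 613. Gm3375 was 99.0% identical to Psmb5, a proteasome subunit, Gm5898 was 99.2% identical to Thrap3, a splicing-associated protein, and Gm15459 was 99.7% identical to Hspa8, a cytosolic chaperone. In Rpl15-ps6, 89.3% of all 31-base words are also found in Rpl15, and this is a share of words, not of sequenced reads. Over 5% of the words of Rpl15-ps6 are shared with each of 24 other genes, Rpl15 among them. For Rpl15-ps2 there are 22 such genes and for Gm15459 10, so a parent is not the only other source.

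Among selenoprotein transcripts, Gpx1 and Selenow fell in compound mutant livers, and most others had a lower mean. Of 24 selenoprotein genes listed, 21 were tested, 16 had a lower mean than in control (all genes: 51.4% lower and 48.6% higher), the median log2 fold change was -0.57, and 2 were called lower and 0 higher. At an adjusted p under 0.05 with no limit on the fold, 9 were lower and 0 higher, against 0.418% and 0.234% of all genes. In 11 the libraries did not overlap with control, all of them lower, against 3.14% of all genes.

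Gpx1 (ENSMUSG00000063856), the cytosolic glutathione peroxidase that reduces hydrogen peroxide, was at 14.04, 14.20, 13.09 and 13.91 in the control livers and at 11.59, 11.81, 11.50 and 11.85 in the compound mutant livers. Its compound mutant libraries lay within a narrow range below every control library, and its mean fell from 13.81 ± 0.50 to 11.69 ± 0.17 (SD, n = 4 each). The difference was -2.12 ± 0.21 on the log2 scale (SE, limma adjusted p = 8.89e-05) and -2.09 without replicate 1. Selenow (ENSMUSG00000041571), a small thioredoxin-fold selenoprotein, was at 8.78, 8.83, 9.31 and 9.07 in control and at 7.78, 7.59, 7.53 and 7.59 in the compound mutant. The genotypes did not overlap, at a difference of -1.37 ± 0.14 (limma adjusted p = 0.000132) and -1.43 without replicate 1. Both genes were called under each of the 28 alternatives tried.

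Selenop, the plasma carrier that exports selenium from the liver, was at 16.46, 16.50, 16.43 and 16.59 in control and at 15.04, 15.72, 15.51 and 15.33 in the compound mutant. These values did not overlap, but at -1.10 ± 0.18 (limma adjusted p = 0.0123) the difference missed the threshold of 0.01. Selenoh, a nuclear selenoprotein, was at 6.73, 6.79, 6.70 and 6.69 in control and spread from 4.52 to 5.88 in the compound mutant (-1.5 ± 0.31, limma adjusted p = 0.0388). Without compound mutant replicate 4, 4 selenoproteins were called lower, where 55 of all 15781 genes were. Those besides Gpx1 and Selenow were Selenop and Txnrd3.

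The 3 thioredoxin reductases, which reduce thioredoxin with NADPH, were at -0.70 for cytosolic Txnrd1 (limma adjusted p = 0.0411), -0.73 for mitochondrial Txnrd2 (limma adjusted p = 0.0124) and -1.07 for Txnrd3 (limma adjusted p = 0.015). None of the 3 overlapped with control. Txnrd1, which is also a target of NRF2, was at 10.83, 10.64, 10.40 and 10.57 in control and at 9.97, 9.99, 10.06 and 9.61 in the compound mutant. Msrb1, the methionine sulfoxide reductase, was at -0.81 (limma adjusted p = 0.0292), and Selenot, an oxidoreductase of the endoplasmic reticulum, was at -0.83 ± 0.11 (limma adjusted p = 0.00189), under the fold limit. Gpx4, which reduces phospholipid hydroperoxides in membranes, was at 10.94, 11.07, 10.95 and 10.84 in control and at 10.57, 10.63, 10.50 and 10.59 in the compound mutant. Its libraries did not overlap, and the difference of -0.38 had a limma adjusted p of 0.0857. In Trspfl/fl::AlbCre livers Gpx4 was near control, at -0.03 (limma adjusted p = 0.927). In Keap1C226SC613Shomo::Trspfl/fl livers, which keep Trsp, it was at -0.60 (limma adjusted p = 0.0228). Values near the control were found for Sephs2 (0.03), the selenophosphate synthetase, for Selenom (0.06), Selenos (0.22) and Selenon (0.22), and for Gpx3 (0.23), with limma adjusted p between 0.665 and 0.972.

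Dio1, the deiodinase that activates thyroid hormone, was at -0.99 ± 0.67 (limma adjusted p = 0.58), and control replicate 3 was far below the other controls, at 7.64 against 10.34 to 10.71. Of the 9 tested genes of the selenocysteine synthesis and insertion machinery, 0 were called, and their median log2 fold change was -0.14.

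Selenoprotein transcripts were then compared between the 2 genotypes that lack Trsp in hepatocytes. Gpx1 was at -2.11 and Selenow at -1.39 in Trspfl/fl::AlbCre against the same control libraries, and the list medians were -0.57 in both genotypes and -0.07 in Keap1C226SC613Shomo::Trspfl/fl. Tested against each other, compound mutant and Trspfl/fl::AlbCre livers had 0 of the 21 genes called in either direction. Over all genes, 0.114% were called higher and 0.456% lower in that comparison, so 0 of 21 is near the share of all genes. The log2 difference in Gpx1 was -0.01 (95% interval -0.46 to 0.44). Against Keap1C226SC613Shomo::Trspfl/fl livers, 3 of the 21 were called lower in the compound mutant, where 0.101% of all genes were, among them Gpx1 at -1.84 ± 0.21 (limma adjusted p = 0.000434).

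**Figure D2:**
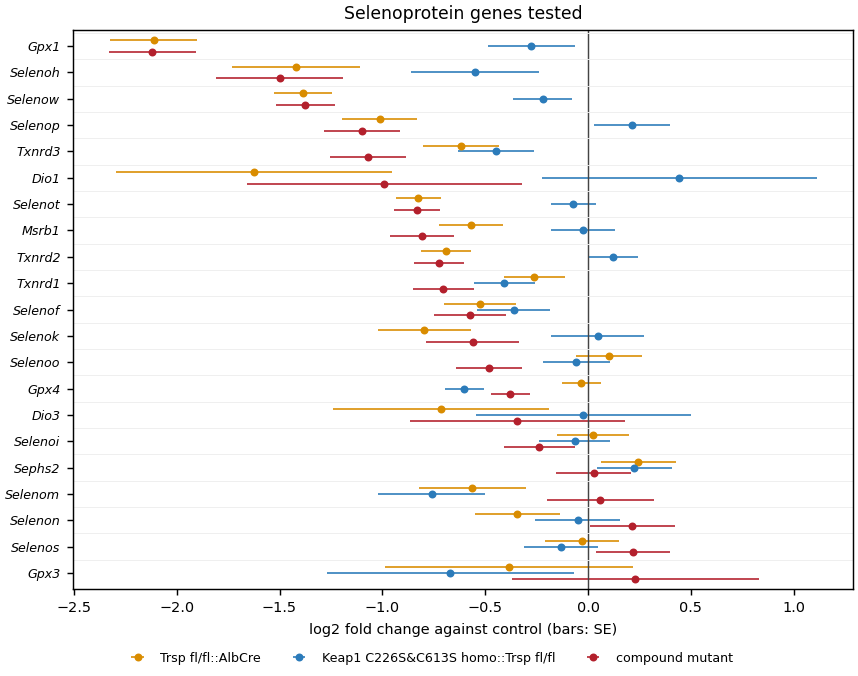
Log2 fold change against the control livers for the 21 selenoprotein genes tested, in Trspfl/fl::AlbCre, Keap1C226SC613Shomo::Trspfl/fl and compound mutant livers (4 livers each; bars are standard errors, and the 4 control livers are shared). Gpx1, at -2.11 and -2.12, and Selenow, at -1.39 and -1.37, lie at nearly the same place in the 2 genotypes that lack Trsp in hepatocytes.

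Of the NRF2 target genes, Gstm3 fell in compound mutant livers and 0 rose. Of 50 listed, 48 were tested, 30 had a lower and 18 a higher mean than control, and the median log2 fold change was -0.24. In Trspfl/fl::AlbCre livers, against the same control libraries, the median was 1.17 and 17 of the 48 were called higher, where 0.19% of all genes were, and in Keap1C226SC613Shomo::Trspfl/fl livers the median was -0.50. Compound mutant livers tested against Trspfl/fl::AlbCre livers had 25 of the 48 called lower and 0 higher, where 0.456% of all genes were called lower.

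A search of promoters shows where an antioxidant response element could lie. The core TGACNNNGC was searched on both strands from 250 bases before to 50 bases after each start (RefSeq, GRCm38.p6), and 40 of the 48 target genes had a promoter in that set. It was found in 14 of their 51 promoters (27.5%), in 14% of the 13877 promoters of genes tested and in 12.4% of all 32851 promoters. Of the 12 genes called lower in the compound mutant, 9 had a promoter, and 0 of their 11 promoters held the core. Of the 9 called higher, 2 had one, and the core was found in that of Krt20. Stretches with the core in capitals, on the strand of the gene, are shown for 4 targets whose values in the 2 Trsp knockout genotypes follow. In Pir and Txnrd1 the core lies on the strand opposite to the gene, so its complement is in capitals. A match is a description of letters, and occupancy was not measured.
Htatip2, chr7:49759443-49759491, plus strand: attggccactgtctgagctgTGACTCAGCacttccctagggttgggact
Pir, chrX:164269197-164269245, plus strand: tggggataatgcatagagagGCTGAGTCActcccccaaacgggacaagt
Ugdh, chr5:65435946-65435994, minus strand: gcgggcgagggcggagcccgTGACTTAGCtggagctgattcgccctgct
Txnrd1, chr10:82859094-82859142, plus strand: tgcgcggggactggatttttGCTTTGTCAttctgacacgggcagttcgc

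Of these, Htatip2, an oxidoreductase-like protein, was at a log2 fold change of 0.06 in the compound mutant and of 1.60 in Trspfl/fl::AlbCre livers. Pir, an iron-binding nuclear protein, was at 0.06 and 1.09, and Ugdh, which makes UDP-glucuronate, at 0.53 and 2.27. The differences between the 2 genotypes were -1.54, -1.04 and -1.74, each with a limma adjusted p under 0.001. Txnrd1 was at -0.70 in the compound mutant and -0.26 in Trspfl/fl::AlbCre livers. Of the targets with the core that are not shown, Abcc4, Srxn1 and Me1 were at 2.42, 1.42 and 1.38 in Trspfl/fl::AlbCre livers. There, Abcc2, Gclm, Gsta3 and G6pdx were at 0.56, 0.31, 0.09 and -0.23.

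Nqo1, the quinone reductase used as a marker of NRF2 activity, was at 7.35, 7.57, 7.21 and 7.37 in control livers and at 6.88, 7.16, 6.17 and 6.52 in compound mutant livers. Every compound mutant library was below every control library, and at -0.69 ± 0.21 (limma adjusted p = 0.149) the difference did not pass the test. In Trspfl/fl::AlbCre livers Nqo1 ranged from 9.29 to 10.16, and in Keap1C226SC613Shomo::Trspfl/fl livers from 5.40 to 5.61. The compound mutant lay between these ranges, 2.96 below the first (limma adjusted p = 4.37e-07) and 1.13 above the second (limma adjusted p = 0.0171).

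Among enzymes of glutathione conjugation, Gstm3 (ENSMUSG00000004038) was at 10.35, 10.32, 10.06 and 10.22 in control and at 6.59, 7.64, 6.34 and 8.57 in the compound mutant. All 4 compound mutant values were below the controls and were spread over more than 2 log2 units, and the log2 fold change was -2.95 ± 0.41 (limma adjusted p = 0.00274), or -2.72 without replicate 1, when the adjusted p was 0.0138. Gstm3 was at +2.91 in Trspfl/fl::AlbCre and -2.32 in Keap1C226SC613Shomo::Trspfl/fl livers, and 15.2% of its 31-base words are shared with Gstm1. Gstm1 was at 13.59, 13.74, 14.21 and 14.09 in control and at 11.74, 13.02, 12.10 and 13.56 in the compound mutant, without overlap (-1.30 ± 0.29, limma adjusted p = 0.059). The difference from Trspfl/fl::AlbCre livers was -3.26 (limma adjusted p = 1.05e-05). A pair of alpha class genes had higher means than control without passing the test, Gsta1 at 1.11 ± 0.36 (limma adjusted p = 0.184) and Gsta2 at 1.40 ± 0.43 (limma adjusted p = 0.162). Gsta1 was at 4.31, 3.95, 3.10 and 4.76 in the compound mutant, at 2.0 to 3.58 in control and at 9.44 to 10.33 in Trspfl/fl::AlbCre livers. Gsta2 did not overlap with control, and the difference from Keap1C226SC613Shomo::Trspfl/fl livers, 3.19, passed the test (limma adjusted p = 0.00205). Of all 22 glutathione S-transferase genes tested, 18 had a lower mean than control (median -0.57), and 1 was called lower (all genes: 0.076%). Against Trspfl/fl::AlbCre, 11 were called lower (all genes: 0.456%).

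No target of glutathione synthesis or of thiol and NADPH supply named here passed the test. Gclc and Gclm, the subunits of glutamate-cysteine ligase, were at -0.08 ± 0.25 and 0.04 ± 0.16, with signs that turned when single livers were left out. Srxn1, which reactivates peroxiredoxins, was at 9.02, 8.70, 8.56 and 8.91 in control and at 9.27, 8.89, 8.73 and 8.89 in the compound mutant, which overlap (0.15 ± 0.13). The 95% interval of the Srxn1 difference was -0.12 to 0.42, and that of Me1, malic enzyme, was -0.57 to 1.21 around 0.32. Srxn1 was 1.27 lower than in Trspfl/fl::AlbCre livers (limma adjusted p = 3.79e-05). Hmox1, heme oxygenase, was at 0.85 ± 0.47, and Txn1, thioredoxin, at -0.37 ± 0.14. The same 2 genotypes differed in Vtcn1, an immune checkpoint ligand, which was at 3.62 in Trspfl/fl::AlbCre and -0.49 in the compound mutant (difference -4.10, limma adjusted p = 5.24e-07).

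Against Keap1C226SC613Shomo::Trspfl/fl livers, 4 of the 48 targets were called higher in the compound mutant and 0 lower, where 0.0697% of all genes were called higher. They were Gsta2, Ugdh, Pir and Aox1, an aldehyde oxidase, at 3.19, 1.41, 1.01 and 1.73. The 14 regulators of the pathway had 0 members called. Keap1 was at -0.13 and Nfe2l2, which encodes NRF2, at -0.25, and Sqstm1, the autophagy adaptor that binds KEAP1, was at 12.21 to 12.42 in the compound mutant and 11.64 to 11.86 in control (0.60 ± 0.12, limma adjusted p = 0.0374).

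**Figure D3:**
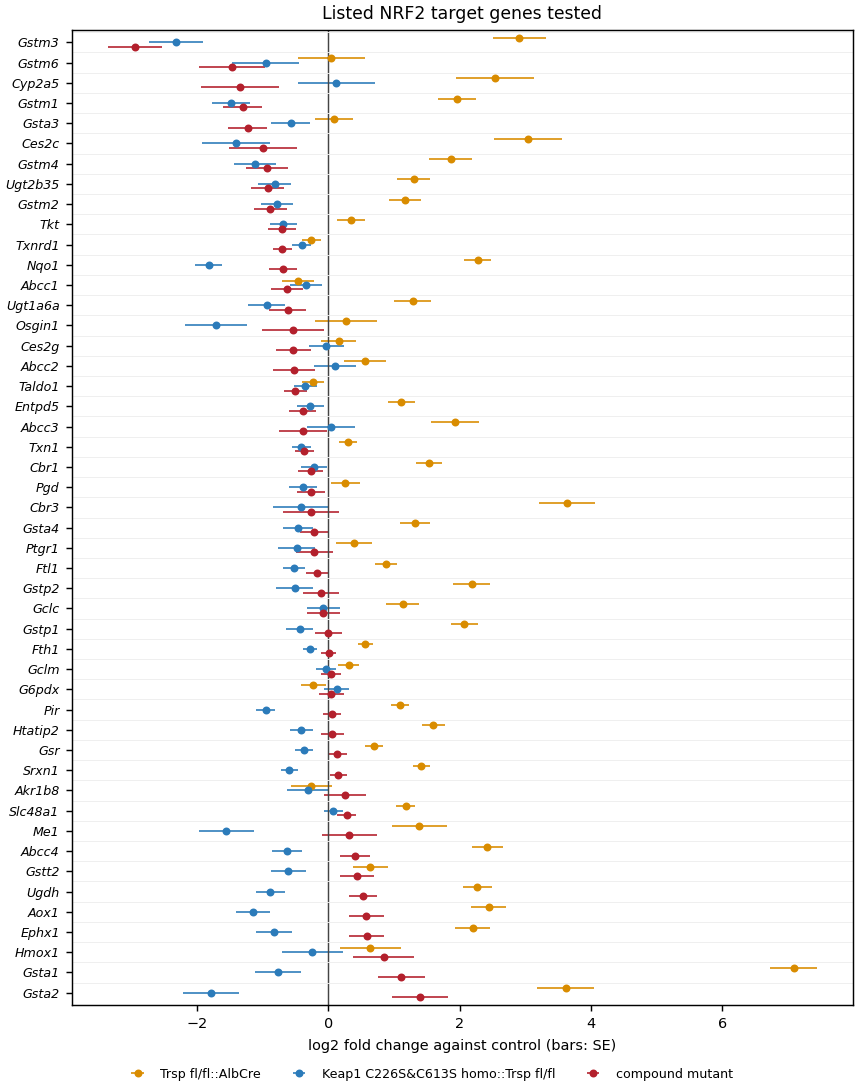
Log2 fold change against the control livers for the 48 listed NRF2 target genes tested, ordered by the value in the compound mutant (4 livers per genotype; bars are standard errors, control livers shared). Compound mutant points lie from -2.95 (Gstm3) to 1.40 (Gsta2), and those of Trspfl/fl::AlbCre reach 7.09 (Gsta1).

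Among the genes called lower, the 4 largest differences were in drug-metabolising enzymes, Ces1f, Cyp2c54, Gstm3 and Cyp2c50. Ces1f (ENSMUSG00000031725), a carboxylesterase that hydrolyses esters and lipids, was at 9.0, 9.47, 6.97 and 7.90 in control and at 3.83, 3.78, 3.10 and 4.59 in the compound mutant. All 4 compound mutant livers were far below the lowest control, with a difference of -4.51 ± 0.56 (limma adjusted p = 0.000976), which was the same without replicate 1. In Keap1C226SC613Shomo::Trspfl/fl livers it was at 5.79, 4.27, 5.23 and 3.54, and the compound mutant differed from these by -0.88 (limma adjusted p = 0.529). In Trspfl/fl::AlbCre livers it was at 9.06 to 10.61, 6.33 above the compound mutant (limma adjusted p = 9.45e-06). Of the 14 carboxylesterase genes tested, 13 had a lower mean than control (median -0.87), and Ces1f alone was called.

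Cyp2c54 (ENSMUSG00000067225), a cytochrome P450 of the 2c family, was at 10.97, 11.48, 10.93 and 12.24 in control and at 5.63, 7.87, 5.47 and 8.95 in the compound mutant. The compound mutant livers were all lower and far apart from each other (-4.42 ± 0.67, limma adjusted p = 0.00579), and without replicate 1 the log2 fold change was -3.97 with an adjusted p of 0.0227. Cyp2c54 was at -3.78 in Keap1C226SC613Shomo::Trspfl/fl livers (limma adjusted p = 0.0469), from which the compound mutant differed by -0.65 (limma adjusted p = 0.74). In Trspfl/fl::AlbCre livers Cyp2c54 was at -1.47 (limma adjusted p = 0.426). Its neighbour Cyp2c50 (ENSMUSG00000054827), with which it shares 31.4% of its 31-base words, was at 13.60, 13.80, 13.22 and 13.95 in control and at 9.68, 11.77, 10.73 and 12.15 in the compound mutant (-2.56 ± 0.41, limma adjusted p = 0.00898). How the counting divided reads between these genes is uncertain. Cyp2c50 was called in 9 of 28 alternatives and not when any 1 control liver or compound mutant replicate 1 or 3 was left out, with adjusted p of 0.0105 and 0.0406 for the last 2. Of 55 cytochrome P450 genes tested, 43 had a lower mean (median -0.73), 2 were called lower (all genes: 0.076%) and 0 were called higher. In 13 lower ones the libraries did not overlap with control (all genes: 3.14%). Cyp1a2, the pericentral P450 that oxidises aromatic amines, was at -1.95 (limma adjusted p = 0.0388), and Cyp26b1, which degrades retinoic acid, at -2.79 (limma adjusted p = 0.0325).

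A pair of conjugating enzymes, Ugt2a3 and Sult1b1, also fell. Ugt2a3 (ENSMUSG00000035780), a UDP-glucuronosyltransferase, was at 10.65, 10.95, 10.32 and 10.81 in control and at 7.89, 9.71, 8.48 and 9.30 in the compound mutant (-1.84 ± 0.29, limma adjusted p = 0.00898). It was called in 8 of 28 alternatives, and without replicate 1 the adjusted p was 0.014. Sult1b1 (ENSMUSG00000029269), a sulfotransferase of phenols and thyroid hormones, was at 8.18, 8.33, 8.24 and 8.38 in control and at 6.38, 7.25, 6.46 and 7.30 in the compound mutant. Its libraries fell into a tight control group and a lower, wider compound mutant group (-1.43 ± 0.20, limma adjusted p = 0.00254). Of 20 glucuronidation genes, 18 had a lower mean than control (median -0.65), and in Trspfl/fl::AlbCre livers the median was 0.65 against the same controls.

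Bco2 (ENSMUSG00000032066), the mitochondrial enzyme that cleaves carotenoids, was at 8.03, 8.28, 7.90 and 7.81 in control and at 5.61, 5.92, 5.66 and 6.77 in the compound mutant. In each single mutant it overlapped with control, at 7.7 to 8.04 and 7.4 to 8.16. The difference from control was -2.01 ± 0.23 (limma adjusted p = 0.000382), and -1.89 without replicate 1. The differences from the single mutants were -1.89 (limma adjusted p = 0.000228) and -1.76 (limma adjusted p = 0.00148). The interaction, that is, the Trsp knockout effect with the KEAP1 substitutions minus that without, was -1.63 for Bco2 (limma adjusted p = 0.105), where 5 genes were called higher (0.0317%) and 4 lower (0.0253%). Il18, which starts 354 bases from Bco2 on the opposite strand and overlaps it in the annotation, was at -0.65 (limma adjusted p = 0.0506).

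Plscr2 (ENSMUSG00000032372), a phospholipid scramblase, was at 6.88, 7.10, 6.47 and 7.16 in control and at 5.43, 5.53, 5.31 and 6.0 in the compound mutant (-1.33 ± 0.20, limma adjusted p = 0.00502). It was at 0.51 in Trspfl/fl::AlbCre and -0.76 in Keap1C226SC613Shomo::Trspfl/fl livers. Snapc5, a subunit of the small nuclear RNA activating complex, was at -1.24 ± 0.18 (limma adjusted p = 0.00471), and the non-coding C630043F03Rik was at -1.10 ± 0.14 (limma adjusted p = 0.00121). Without replicate 1 the adjusted p of Plscr2 and Snapc5 was 0.0219 for each, and that of C630043F03Rik 0.00695.

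Among the genes that rose, Gpat3 (ENSMUSG00000029314), which starts triglyceride synthesis by acylating glycerol 3-phosphate, was at 6.70, 6.41, 6.61 and 6.68 in control and at 8.24, 8.65, 8.32 and 7.58 in the compound mutant. The controls were close together and each compound mutant liver was above them (1.60 ± 0.24, limma adjusted p = 0.00579). It was at 7.95, 7.33, 6.73 and 7.13 in Trspfl/fl::AlbCre and at 7.13, 7.18, 6.98 and 7.51 in Keap1C226SC613Shomo::Trspfl/fl livers, above every control liver in both. It was called in 15 of 28 alternatives, and without replicate 1 the adjusted p was 0.0227.

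Krt20 (ENSMUSG00000035775), a keratin of intestinal and other simple epithelia, was at normalized counts of 0.952, 0, 2.81 and 0 in control and of 31.7, 10.6, 19.2 and 18 in the compound mutant. Reads were few but higher in each compound mutant liver (2.24 ± 0.34, limma adjusted p = 0.0067), and it was called in 13 of 27 alternatives. Without replicate 1 it was at 2.02 with an adjusted p of 0.0259. Nkiras1 (ENSMUSG00000021772), a Ras-like inhibitor of NF-kappaB signalling, was at 6.67, 6.75, 6.54 and 6.68 in control and at 7.67, 7.61, 7.58 and 7.90 in the compound mutant. Both groups were narrow, and the log2 fold change was 1.03 ± 0.13 (limma adjusted p = 0.000976), or 1.04 without replicate 1. In the single mutants Nkiras1 was at 6.29 to 6.89. Its start lies 255 bases from that of Rpl15 on the opposite strand, and the annotated genes overlap.

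Of the 6 copied or small RNAs, 5 had reads in the compound mutant and at most 1 read in any other library. Rpl15-ps6 (ENSMUSG00000057262) had 231, 246, 255 and 252 reads in the 4 compound mutant libraries, and Gm3375 (ENSMUSG00000107470) had 187, 192, 194 and 194. Rprl3 (ENSMUSG00000088025), annotated as an RNA of the ribonuclease P family, had 266, 196, 308 and 163. Each had 0 or 1 read in every one of the other 12 libraries. Rpl15-ps2 (ENSMUSG00000098915) had 70 to 109 and Gm5898 (ENSMUSG00000081788) 37 to 96, with at most 1 read in each other library. Set against the limit of 3 reads per library that a count of 0 allows, the mean normalized count was at least 71.7-fold higher for Rpl15-ps6, 55.8-fold for Gm3375, 26.5-fold for Rpl15-ps2 and 16.5-fold for Gm5898. Rprl3, with 2 reads in the controls, was 412.5-fold higher (113.9 to 3411, exact 95% interval of the counts), and these limits cover counting error only. The limma adjusted p of the 5 genes was between 3.27e-11 and 3.69e-06, and they were called in every alternative that tested them, including the fit without replicate 1. These 5 genes passed the filter on low values only through the compound mutant libraries. Values in the other libraries lie at or near the floor with next to no spread, so the adjusted p adds no support to the read counts.

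Over all 18209 named genes, 7 had at least 5 reads in each compound mutant library and at most 1 in each other library, and the same search found 0 for each of the other 3 genotypes. The other two were Gm5503 and Nuggc, which were below the filter and are named after their values were seen. The parent genes did not pass the test. Rpl15, a protein of the large ribosomal subunit, was at 0.05 ± 0.11, Psmb5 at -0.16 ± 0.11, Thrap3 at -0.22 ± 0.14 and Hspa8 at -0.45 ± 0.20. Rpl15 and Psmb5 lie on chromosome 14, as do Nuggc and the called Nkiras1. Osgep, the parent of Gm5503, also lies there. So does Ccnb1ip1, the coding gene sharing most 31-base words with Rprl3, but that share is 5%. Rprl2, on chromosome 3, shares more of the words of Rprl3, 10.8%. Thrap3 lies on chromosome 4 and Hspa8 on chromosome 9, and chromosome 14 holds 3.5% of the genes tested. These genes were brought together after their values were seen, and whether they share a chromosome more than other genes was not tested. Whether the livers of the 4 genotypes carry the same copies, small RNA genes and parent gene sequences was not tested. Presence of such a gene, its expression and parent reads assigned to it therefore cannot be told apart in these reads. The same holds for Gm15459.

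Gm15459 (ENSMUSG00000100801) followed another pattern. It had 7490, 13261, 11295 and 10742 reads in the compound mutant and 6, 4, 4 and 0 in control. In Keap1C226SC613Shomo::Trspfl/fl livers it had 4, 2809, 3 and 5709 reads, so 2 of these livers were near the controls and 2 were high, and in Trspfl/fl::AlbCre livers it had 2 to 8. The log2 fold change was 10.42 ± 1.66 (limma adjusted p = 0.00898), with a standard error that holds the split in Keap1C226SC613Shomo::Trspfl/fl livers. Without replicate 1 the adjusted p was 0.0259, and it was called in 12 of 28 alternatives.

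**Figure D4:**
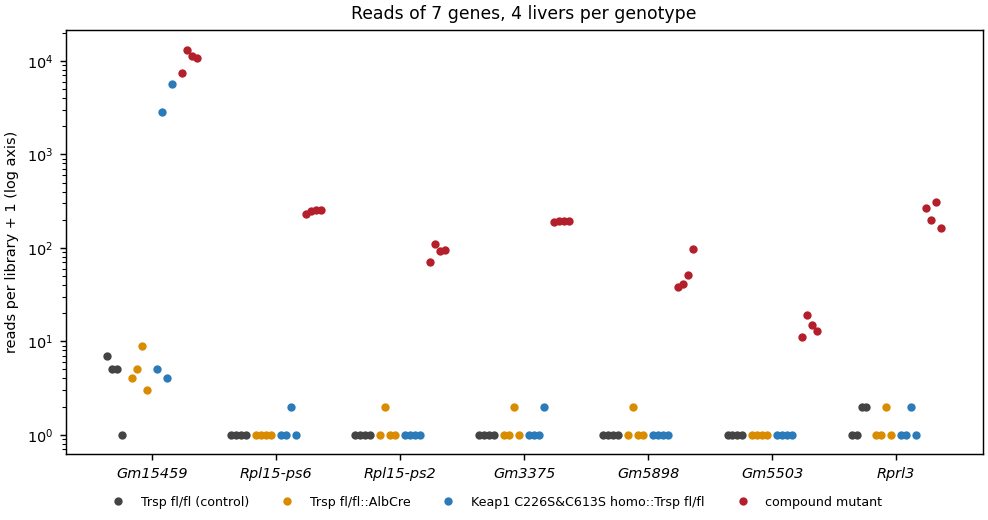
Recovered reads plus 1, on a log axis, for the 6 copied or small RNAs called higher and the untested Gm5503, in each of the 16 libraries, coloured by genotype. The 4 compound mutant livers stand apart in every gene, and in Gm15459 they are joined by 2 livers of Keap1C226SC613Shomo::Trspfl/fl with 2809 and 5709 reads.

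Over the gene lists as a whole, 7 members were called lower and 0 higher, namely Gpx1, Selenow, Gstm3, Ces1f, Cyp2c54, Cyp2c50 and Ugt2a3. In the remaining lists 0 members were called, and they are described by counts and medians. All 24 genes of sterol synthesis had a lower mean than control (median -1.79), 7 of them without overlap (all genes: 3.14%). Against the same controls the list median was -1.53 in Keap1C226SC613Shomo::Trspfl/fl livers, whose 4 livers were at -1.65 to -1.58. In Trspfl/fl::AlbCre livers the median was -0.77, with replicates 1 to 4 at -2.20, -1.75, 0.29 and 0.62. Fdft1, squalene synthase, was at -1.79 (limma adjusted p = 0.0388). Control replicate 4 was also low in this list, 1.69 below the control mean, beside 0.33 to 0.60 above it in the other controls. Of 18 lipogenic genes, 16 had a lower mean (median -0.78), and Gpam, the mitochondrial glycerol-3-phosphate acyltransferase, was at -1.02 ± 0.17 (limma adjusted p = 0.0109). Of 17 pericentral genes, 16 had a lower mean (median -0.48), with Glul, glutamine synthetase of the cells around the central vein, at -1.55 (limma adjusted p = 0.0184) and Rgn, an enzyme of ascorbate synthesis, at -1.33 (limma adjusted p = 0.0207). For 19 periportal genes the median was -0.09.

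Of 30 acute phase genes, 29 had a higher mean than control (median 0.95), and 3 did not overlap (all genes: 3.09% higher). Hpx, the plasma carrier of heme, was at 1.15 ± 0.23 (limma adjusted p = 0.0374). Saa1, serum amyloid A, was at 14.64, 7.73, 13.15 and 6.29 in the compound mutant and 5.38 to 8.89 in control, so that replicates 1 and 3 were above all controls and the other two were not. Lcn2, an iron-siderophore binding protein, was at 14.91, 9.59, 14.00 and 7.69 and had the same pair of high livers. In the integrated stress response, 18 of 23 genes had a higher mean (median 0.50). Psat1, an enzyme of serine synthesis, was at 8.69, 7.06, 7.71 and 6.17 in the compound mutant and 5.08 to 6.08 in control, without overlap (1.95 ± 0.45, limma adjusted p = 0.0643). Trib3, a pseudokinase induced by ATF4, did not overlap either (1.5 ± 0.40, limma adjusted p = 0.106). All 33 cell cycle genes had a lower mean (median -0.69), and replicate 4 was at -2.04 while the other 3 were at -0.43 to -0.22. Of 27 genes of MHC and antigen processing, 21 had a lower mean (median -0.23), with H2-K1, a class I heavy chain, at -1.18 ± 0.19 (limma adjusted p = 0.0114) and H2-Q10, a secreted class I protein of the liver, at -1.78 ± 0.32 (limma adjusted p = 0.0194).

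Further lists had means mostly on one side without a call. Of 32 type I interferon-stimulated genes, 29 had a lower mean than control (median -0.43), and of 18 interferon-inducible GTPases, 15 did (median -0.50). Of 24 genes that differ between the sexes in adult liver, 20 had a lower mean (median -0.79, and -0.60 without replicate 1). Of these, 4 did not overlap (all genes: 3.14% lower). Of 20 transporters of drugs and bile acids, 16 had a lower mean (median -0.39). Higher means were found for 15 of 18 genes of the unfolded protein response (median 0.43), 15 of 19 clock genes (median 0.29) and 13 of 15 fetal liver genes (median 0.30). The lists of peroxide removal, PPAR-alpha targets, p53 targets, the growth hormone axis, iron and heme, NADPH supply, apolipoproteins, ferroptosis, cell death and sex chromosomes had medians from -0.23 to 0.03.

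Markers of other cells were not called, and some varied between libraries. Of 13 monocyte and neutrophil genes, 12 had a higher mean than control (median 1.18), with summed normalized counts of 1581 to 4258 against 1186 to 2581, which overlap. Of 17 erythroid genes, 16 had a lower mean (median -0.56), and the summed counts ran from 19177 to 101760, with replicate 1 highest, against 37474 to 68483. Of 14 B cell genes 12 had a higher mean (median 0.85). In Keap1C226SC613Shomo::Trspfl/fl livers the medians were 0.84 for monocyte and neutrophil, -0.83 for erythroid and 1.21 for B cell genes. In Trspfl/fl::AlbCre livers they were -0.46, -1.14 and -0.03 in the same order. All 14 Kupffer cell genes had a lower mean (median -0.19), and the medians were 0.02 for sinusoidal endothelial, -0.14 for stellate, -0.17 for cholangiocyte, 0.03 for megakaryocyte and -0.12 for T and NK cell genes. The part of these cells in the differences described above was not tested.

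The 4 compound mutant livers differed from each other in the metabolic lists and less in the selenoproteins. The median deviation of the 21 selenoprotein genes from the control mean was -0.64, -0.73, -0.60 and -0.59 in replicates 1 to 4. For the 55 cytochrome P450 genes it was -1.46, -0.44, -1.03 and -0.04, and for the 14 carboxylesterases it was -1.62, -0.51, -1.14 and -0.02. Replicates 1 and 3 were the lowest in both lists and replicate 4 was at the control level. The acute phase list was at 1.54, 0.12, 1.75 and -0.06, so the livers with the lowest P450 transcripts also had the highest acute phase transcripts, and their part in each other was not tested. The 15 hepatocyte markers were at -0.48, 0.05, -0.23 and 0.27 in the same order. The median SD across genes was 0.267 in both genotypes. Without replicate 4, 25 list members were called lower and 2 higher, where 55 and 15 of all 15781 genes were. Among these members were Gstm1, Gsta3, Cyp1a2 and Fdft1 lower and Psat1 and Hpx higher.

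**Figure D5:**
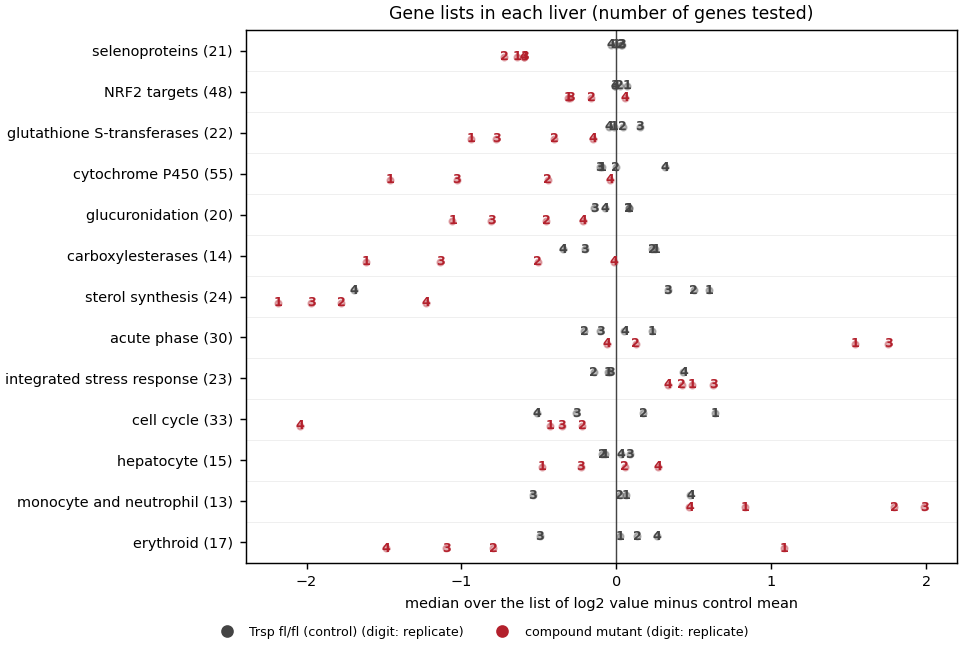
Median over each gene list of the log2 value minus the control mean, in the 4 control and 4 compound mutant livers (digits are replicate numbers; the number of genes tested is in parentheses). The selenoproteins of the 4 compound mutant livers lie between -0.73 and -0.59, while cytochrome P450 genes run from -1.46 to -0.04 and acute phase genes from -0.06 to 1.75.

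Over all genes, the compound mutant differed from Trspfl/fl::AlbCre in 18 genes called higher (0.114%) and 72 called lower (0.456%), and from Keap1C226SC613Shomo::Trspfl/fl in 11 called higher (0.0697%) and 16 called lower (0.101%). Tram2, a translocon-associated protein, was at 0.16 against control, and the compound mutant was 1.05 lower than Keap1C226SC613Shomo::Trspfl/fl livers (limma adjusted p = 0.000492), where the gene was at 1.21. At the same thresholds, the single mutants differed from the control libraries in 30 higher (0.19%) and 4 lower genes (0.0253%) for Trspfl/fl::AlbCre and in 1 higher and 1 lower gene (0.00634% each) for Keap1C226SC613Shomo::Trspfl/fl, and these comparisons share the 4 control libraries.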

How the data were processed

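Liver RNA was prepared with rRNA depletion and a directional kit, per the labels, and the authors estimated reads with Salmon and processed them in iDEP. The deposited values are log2 values, log2(reads divided by a size factor, plus 4). Reversing this returned whole reads (within 0.05 read) for 100% of low values in each library, 11386724 to 19164115 reads per library. Of 18578 rows, the 369 without an identifier (0.274% to 0.627% of reads) were left out, and every per-sample column was used.

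Tested were genes that reached a normalized count of 10 in 4 or more libraries, 15781 in all. A mean per genotype was fitted to the 16 libraries with limma 3.58.1 (R 4.3.3, lmFit, contrasts.fit, eBayes with trend), without covariates, with 12 residual degrees of freedom. A call needed a Benjamini-Hochberg adjusted p (two-sided) under 0.01 and a log2 difference beyond 1 in size. Replicates are separate samples by the labels. The p-values rest on 1 estimate of spread per gene, pooled over the 4 genotypes and drawn towards that of genes at a similar level. They do not measure the spread of the compared genotypes alone. The fit was also run on simulated counts with the same relative spread in every genotype. That is a simpler setting than these data, and no conclusion is drawn from it. The alternatives were other constants, filters, scalings, thresholds, samples in the fit, a replicate block, each library left out and voom on the recovered reads.

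The comparison, the gene lists and the rule for named genes were chosen with earlier results of these data known. The rule names up to 10 called genes per direction, by size of change, a panel of pathway genes, up to 4 called members of each list and sex-linked genes as a label check. Sequences and chromosomes came from GENCODE M21 (GRCm38) and RefSeq (GRCm38.p6), not from the build of the counts, so the only positions given are those of promoter stretches and of gene starts relative to a neighbour in these annotations, and the planned description by distance from Keap1 was not made. Python 3.11.15 was used for tables and plots.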

Additional observations from a re-analysis of the deposited data

Results flagged for a closer look

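A set of 6 values lay far from the other 3 livers of their genotype by Dixon's criterion at the 95% level, where 96 groups of 4 were examined and chance gives about 4.8. Dio1 was at 7.64 in control replicate 3, with the nearest control at 10.34. In compound mutant replicate 1, Xist was at 14.71, and the Y-linked genes Ddx3y, Uty, Kdm5d and Eif2s3y were at 2.0, 2.0, 2.55 and 2.0, with the nearest liver of the genotype at 5.76 for Xist and at 10.35, 8.14, 6.95 and 8.67 for the Y-linked genes. This library is labelled male like the others.

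For 8 of the named genes, the difference between compound mutant and Keap1C226SC613Shomo::Trspfl/fl livers was not the same as that between Trspfl/fl::AlbCre and control livers in limma's interaction test, where 5 genes were called higher (0.0317%) and 4 lower (0.0253%) over all genes. The difference was 5.8 (SE 0.27, adjusted p = 7.7e-09) for Rpl15-ps6, 5.77 (SE 0.33, adjusted p = 6.9e-08) for Rprl3, 5.35 (SE 0.28, adjusted p = 2.7e-08) for Gm3375, 4.36 (SE 0.31, adjusted p = 1.1e-06) for Rpl15-ps2 and 3.61 (SE 0.41, adjusted p = 0.0004) for Gm5898. In these 5 genes, 4 of 4 compound mutant livers were above all 12 other livers. They passed the filter on low values only through those compound mutant livers, so their adjusted p adds no support to this. Whether all livers carry these 5 genes and the same parent gene sequences was not tested. The difference was -5.21 (SE 0.5, adjusted p = 7.2e-05) for Gsta1, -3.84 (SE 0.41, adjusted p = 0.00025) for Vtcn1 and -1.23 (SE 0.17, adjusted p = 0.005) for Tram2.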

How the results depend on the processing

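Of the 9 higher and 12 lower genes of compound mutant against control, 7 and 10 were called with constants of 1 or 0.5, 9 and 11 with quantile normalization or scaling by library totals, and 6 and 9 with voom. Library totals moved the median of all genes to 0.11. Counts moved by over 1.5 times as follows. A mean normalized count of at least 50 left 5 higher against control, 9 against Trspfl/fl::AlbCre and 7 against Keap1C226SC613Shomo::Trspfl/fl. Fitting only the 2 genotypes compared left 5 lower against control, 34 against Trspfl/fl::AlbCre and 2 list members. An adjusted p under 0.05 gave 21 higher and 46 lower against control, 64 and 125 against Trspfl/fl::AlbCre, 31 and 44 against Keap1C226SC613Shomo::Trspfl/fl, and 1 higher and 21 lower list members. Library totals gave 28 higher against Trspfl/fl::AlbCre and 19 against Keap1C226SC613Shomo::Trspfl/fl, voom gave 11 against Trspfl/fl::AlbCre, and no mean-variance trend left 10 lower against Keap1C226SC613Shomo::Trspfl/fl. Leaving out 1 library gave 6 to 15 higher and 5 to 55 lower against control, 8 to 41 and 42 to 137 against Trspfl/fl::AlbCre, 7 to 16 and 6 to 26 against Keap1C226SC613Shomo::Trspfl/fl, and 0 to 2 higher and 3 to 25 lower list members. The cause was not tested. The replicate block gave 6 higher and 8 lower against control, 13 and 62 against Trspfl/fl::AlbCre, 8 and 6 against Keap1C226SC613Shomo::Trspfl/fl and 4 lower list members. By the labels, same-numbered samples share only the replicate number. Correlations of their deviations from their genotype means ran from -0.32 to 0.31. A litter or batch shared between samples was not tested. Signs turned for Gclc (0.0107 with quantile normalization, 0.0483 with library totals, -0.298 to 0.127 with 1 library left out), Gclm (-0.0998 to 0.161), Gsta4 (-0.423 to 0.0084), Selenom (-0.0608 to 0.143) and Sephs2 (-0.0885 to 0.127), none of which passed the test. Over 45 named genes, 1105 of 1254 alternative values kept direction and side of the threshold, 127 fell below it and 7 passed it. With 4 livers a genotype the spread between mice limits what could be called, and genes under the filter were not tested.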
